A study of Mus musculus with 2 samples.

Results

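The mitochondrial genome of the mouse encodes core subunits of 4 enzyme complexes of oxidative phosphorylation, and 10 of these genes were followed here: mt-Co1, mt-Co2, mt-Co3, mt-Atp6, mt-Cytb, mt-Nd1, mt-Nd2, mt-Nd3, mt-Nd4 and mt-Nd5. They were chosen by symbol, as 10 of the 13 mt- genes among 32285 genes counted, and held 99.3% ± 0.0497 of the mt- molecules in the barcodes richest in them (SD, n = 2). RNA of single cells was counted in whole blood from mice of wild-type genotype that had received burn/tenotomy, in which a skin burn is joined with the cutting of a tendon. The blood had first passed the iChip, a microfluidic sorter that enriches rare nucleated cells, and 10x Chromium chemistry gave each cell its barcode. Both libraries, replicate 1 and replicate 2, belong to 1 group, and strain, age and sex are not given in the sources used here. Every comparison below is therefore between classes of barcodes of the same 2 libraries. Whether separate mice gave the replicates is not stated in the labels, so each p-value measures a spread that may be technical.

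The respiratory chain passes electrons from NADH and succinate to oxygen and pumps protons out of the mitochondrial matrix, and ATP synthase uses the returning protons to make ATP. The mitochondrial genome supplies a few membrane subunits of complexes I, III, IV and V, while all other subunits, including the whole of complex II, are nuclear-encoded. Transcripts of its heavy strand arise as long precursors that are cut at the tRNAs between the genes, so the level of each mRNA is set largely after transcription, by processing and decay. Maturing red cells clear their mitochondria by mitophagy, and a high share of mitochondrial RNA is commonly read in droplet data as a sign of damaged cells that lost cytoplasmic RNA.

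All 10 members lie on the plus strand of the mitochondrial chromosome in mm10, each as a single coding exon without an intron (GENCODE M21). In order, mt-Nd1 spans 2751 to 3707, mt-Nd2 3914 to 4951, mt-Co1 5328 to 6872, mt-Co2 7013 to 7696 and mt-Atp6 7927 to 8607. They are followed by mt-Co3 at 8607 to 9390, mt-Nd3 at 9459 to 9806, mt-Nd4 at 10167 to 11544, mt-Nd5 at 11742 to 13565 and mt-Cytb at 14145 to 15288. The ends of 4 coding sequences are printed because these 4 members had the largest log2 ratios in the first comparison below; they are read 5′ to 3′ from the GENCODE transcripts, and capitals mark the stop codon.
mt-Co1 (chrM:6813-6872, plus strand): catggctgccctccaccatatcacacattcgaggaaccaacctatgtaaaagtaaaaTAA
mt-Nd1 (chrM:3648-3707, plus strand): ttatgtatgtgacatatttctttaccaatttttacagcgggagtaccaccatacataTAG
mt-Nd2 (chrM:4892-4951, plus strand): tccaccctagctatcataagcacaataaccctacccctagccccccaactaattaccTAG
mt-Nd3 (chrM:9747-9806, plus strand): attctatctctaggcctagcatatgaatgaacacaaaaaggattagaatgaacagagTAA
Each of these 4 carries its full stop codon in the genome. The annotated sequences of mt-Co3, mt-Nd4 and mt-Cytb end in the first letter of a stop codon, which is known to be completed when the poly(A) tail is added. mt-Atp6 shares 1 base with mt-Co3 and 43 bases with mt-Atp8, and mt-Nd5 shares 14 bases with mt-Nd6 on the opposite strand. Annotated nuclear pseudogenes matched mt-Co1, mt-Co2, mt-Co3, mt-Atp6, mt-Nd3 and mt-Nd4 at 99% identity or more over part or all of their length. None of these near-identical copies (0) was among the genes counted, so how reads shared with them were assigned is uncertain.

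Barcodes were divided by the percentage of their unique molecular identifiers (UMIs) that fell on mt- genes. Over 80% were mitochondrial in 366 of 1008 barcodes of replicate 1 (36.3%, exact binomial 95% interval 33.3 to 39.4) and 285 of 849 of replicate 2 (33.6%, 30.4 to 36.9). An intermediate 20 to 80% was seen in 74 and 43 barcodes. Of the barcodes with at most 20%, 473 and 373 took over 50% of their UMIs from haemoglobin genes and are called globin-dominated, while 95 and 148 did not and are called other barcodes. Intervals cover counting error only, and 0 barcode sequences were shared by the libraries.

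The classes differed widely in depth. The over-80% barcodes had a median of 765 and 799 UMIs and 39 and 41 detected genes, and they held 81.9% and 86.7% of all mt- UMIs. Globin-dominated barcodes had medians of 5987 and 6048 UMIs, of which only 12 and 14 were mitochondrial, and their summed mt- UMIs were 12616 and 8814. Globin UMIs numbered 1960 and 1460 in the over-80% class, in which 8 erythroid genes other than globins had 14 and 12 UMIs. The other class was unlike between the libraries: 19 leukocyte genes had 7119 UMIs there in replicate 1 and 350 in replicate 2, and its median haemoglobin share was 0.138% and 16.2%. Because the mt- share set the classes, the level of mitochondrial RNA is no result here, and each member is given as its share of the mt- UMIs of a class.

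In the over-80% barcodes the make-up was nearly the same in both libraries. The subunits of cytochrome c oxidase (complex IV), which hands electrons to oxygen, had the most UMIs. Its 3 genes together took 49.6% and 48.8% of mt- UMIs, and the 5 complex I genes, subunits of the NADH dehydrogenase, took 19.3% and 19.7%. mt-Atp6, the proton channel subunit of ATP synthase (complex V), took 20.6% and 21.1%. mt-Cytb, the cytochrome b of complex III, took 9.73% and 9.83%. Scaled by coding length and set to 100% over the 13 mt- genes, mt-Atp6 led with 24.7% and 25.1%, above mt-Co3 with 23.5% and 23.8% and mt-Co2 with 19.5% and 19.0%. Far below followed mt-Cytb (6.94% and 6.97%), mt-Co1 (5.66% and 5.10%) and mt-Nd1 (5.17% and 4.97%). mt-Nd3 had a length-scaled share of 4.90% and 5.39%, and the ranges of mt-Co1, mt-Nd1 and mt-Nd3 overlapped each other. mt-Nd2 (3.64% and 3.77%), mt-Nd4 (3.37% and 3.40%) and mt-Nd5 (0.377% and 0.400%) stood apart from each other. How far counts of this assay grow with transcript length was not tested.

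**Figure D1:**
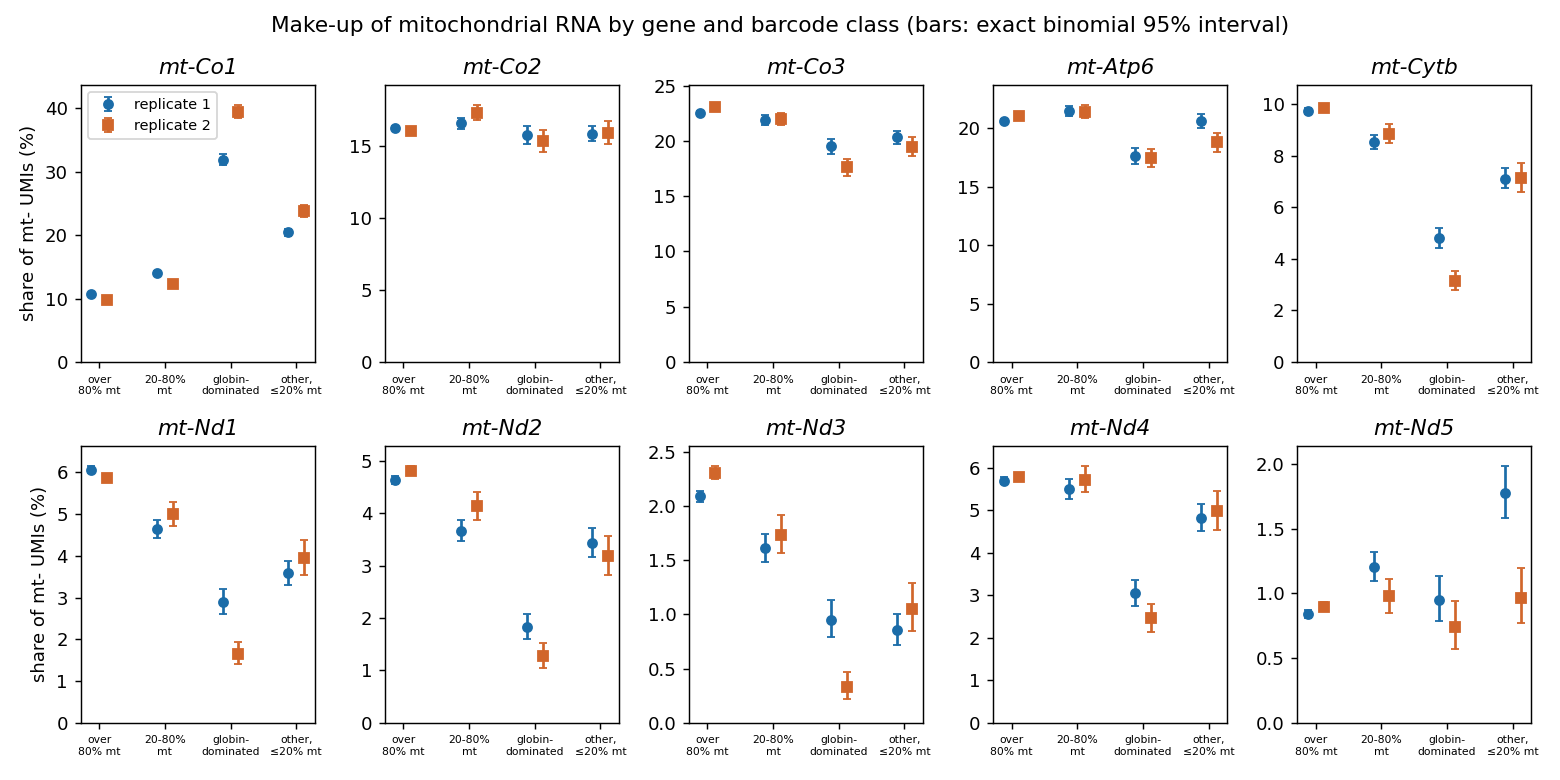
Share of mt- UMIs (%, linear axes from 0) taken by each of the 10 members in 4 classes of barcodes, 1 point per library with its exact binomial 95% interval. mt-Co1 took 31.9% and 39.4% in globin-dominated barcodes, against about 10% in barcodes with over 80% mt- UMIs, while mt-Co2 lay between 15.4% and 17.3% in every class.

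The first comparison set the over-80% barcodes against the globin-dominated ones, in which 8 other erythroid genes had 27018 and 20820 UMIs and 19 leukocyte genes had 52 and 20. mt-Co1, the catalytic subunit that reduces oxygen, took 10.7% and 9.71% of mt- UMIs in over-80% barcodes, against 31.9% and 39.4% in globin-dominated barcodes. The classes did not overlap, and the counting intervals were narrow (10.6 to 10.8 and 9.59 to 9.82 over 80%, 31.1 to 32.7 and 38.4 to 40.5 in globin-dominated barcodes). These intervals leave out the variation of mt-Co1 among barcodes. Among barcodes with at least 50 mt- UMIs it was well above that of random sampling in both classes, as given below. The fitted log2 ratio was -1.80 (SE 0.77), a 3.48-fold difference in share, with -1.57 and -2.02 in the libraries taken singly. edgeR's quasi-likelihood test with Benjamini-Hochberg adjustment over 4048 genes gave an adjusted p = 0.0514, so the difference missed the threshold of 0.05. It passed in edgeR with no replicate block (adjusted p = 0.0412), with median-ratio (0.0123) or TMM factors (0.0342), with at least 1000 UMIs per barcode (0.0330) and with classes set without mt-Co1 (0.0497). It missed the threshold in edgeR with class limits of 10% and 90% (adjusted p = 0.0622) and without the filter on low counts (0.143), and narrower globin-dominated classes and DESeq2 are given below.

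The complex I genes and mt-Cytb stood the other way. mt-Nd3, a small membrane subunit near the quinone site of complex I, took 2.09% and 2.31% in over-80% barcodes, against 0.951% and 0.329% in globin-dominated barcodes. It was higher in the over-80% class by 1.83 on the log2 scale (SE 0.76, edgeR adjusted p = 0.0430) and was the only member called. The 2 libraries gave unlike sizes for it, 1.14 and 2.81, and the globin-dominated value of replicate 2 rested on 29 UMIs. In replicate 1, 91 of the 120 mt-Nd3 UMIs of that class came from the 6 barcodes with more than 5% mt- UMIs. Without these 6 barcodes its share there was 0.348%. The call was lost with other scalings of the mt- UMIs (edgeR adjusted p = 0.108 with median-ratio factors, 0.141 with TMM factors and 0.145 without mt-Co1) and without the filter on low counts (0.105).

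The other complex I genes differed by similar amounts without passing the edgeR test. mt-Nd1, a membrane subunit at the entry of the quinone, took 6.06% and 5.86% in over-80% barcodes, against 2.89% and 1.66% in globin-dominated barcodes (log2 ratio 1.41, SE 0.76, edgeR adjusted p = 0.140). mt-Nd2, an antiporter-like proton-pumping subunit, took 4.63% and 4.82% in over-80% barcodes, against 1.83% and 1.27% in globin-dominated barcodes (log2 ratio 1.62, SE 0.76, edgeR adjusted p = 0.0810). mt-Nd4, an antiporter-like subunit as well, took 5.70% and 5.78% in over-80% barcodes, against 3.04% and 2.45% in globin-dominated barcodes (log2 ratio 1.06, SE 0.75, edgeR adjusted p = 0.302). For all 3 genes both over-80% values lay above both globin-dominated values.
mt-Cytb took 9.73% and 9.83% in over-80% barcodes, against 4.80% and 3.15% in globin-dominated barcodes, also without overlap (log2 ratio 1.31, SE 0.76, edgeR adjusted p = 0.182). mt-Nd5, the last antiporter-like subunit of complex I, was unlike its partners. Its share was 0.842% and 0.898% in over-80% barcodes and 0.951% and 0.737% in globin-dominated barcodes, and the classes overlapped (log2 ratio 0.072, SE 0.72, edgeR adjusted p = 1).

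The abundant transcripts of complexes IV and V other than mt-Co1 differed little. mt-Co2, which carries the copper site that receives electrons from cytochrome c, took 16.3% and 16.0% in over-80% barcodes and 15.8% and 15.4% in globin-dominated barcodes. mt-Co3, a structural core subunit of the oxidase, took 22.6% and 23.0% in over-80% barcodes, against 19.5% and 17.6% in globin-dominated barcodes. mt-Atp6 took 20.6% and 21.1% in over-80% barcodes, against 17.6% and 17.5% in globin-dominated barcodes. Their log2 ratios were 0.055, 0.30 and 0.25 (edgeR adjusted p = 1, 0.998 and 0.998), and the sign of all 3 turned with median-ratio scaling, to -0.37, -0.13 and -0.18. That scaling moved the median log2 ratio of all genes by -0.37 (TMM by -0.30, leaving out mt-Co1 by -0.43), so only differences between members are independent of it, and mt-Nd5 also became negative (-0.36). The positive log2 ratios of mt-Nd1, mt-Nd2, mt-Nd3, mt-Nd4 and mt-Cytb and the negative one of mt-Co1 kept their sign under every alternative scaling and setting run.

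In all, 1 of 10 members was called, 1 higher and 0 lower, where 37.1% of the 4048 genes tested were called in either direction. Calls among all genes were higher in the over-80% class for 0.0741% and lower for 37%, as follows from scaling to mt- UMIs in classes set by them, so nothing is read from that background. The median log2 ratio was 0.68 over the members and -3.23 over all genes. Without overlap between the classes were 9 members, 8 higher and 1 lower in both libraries, where 46.2% of all genes did not overlap, 11.4% higher and 34.8% lower. The spread used by edgeR was wholly the one shared across genes (standard errors of 0.716 to 0.768 for the members), so each member's own agreement between the libraries hardly entered its p-value. DESeq2, whose standard errors differed by gene (0.239 for mt-Co1 and 0.123 for mt-Co3), called 7 members with nearly the same log2 ratios. They were mt-Co1 lower (DESeq2 adjusted p = 4.79e-13) and 6 higher: mt-Nd2 (3.10e-08), mt-Nd4 (2.06e-07), mt-Cytb (1.18e-05), mt-Nd1 (2.76e-04), mt-Nd3 (5.24e-03) and mt-Co3 (0.0358). Of all genes DESeq2 called 44.3%, 0.148% higher and 44.1% lower. Unadjusted edgeR p-values were below 0.05 for 3 members. The share of all genes passing that unadjusted rule was not taken, so this count is not read as a result about the members. The same holds for the counts by unadjusted p-value in the comparisons below.

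**Figure D2:**
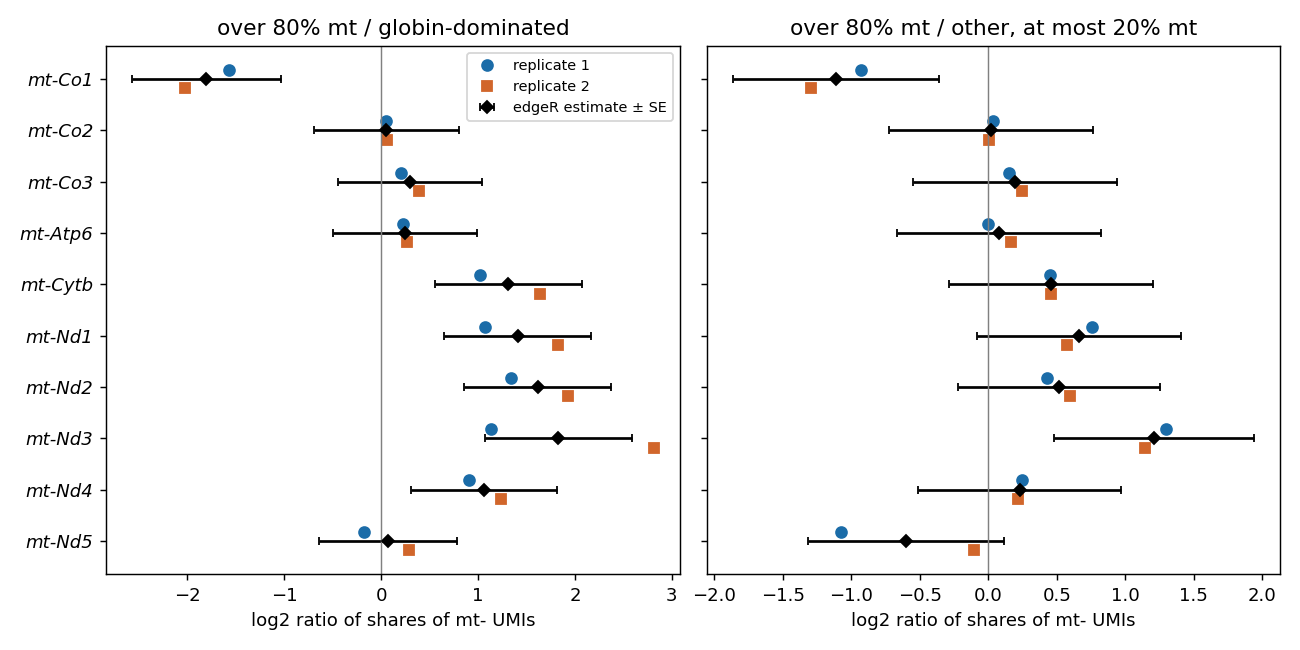
Log2 ratio of each member's share of mt- UMIs in barcodes with over 80% mt- UMIs over globin-dominated barcodes (left) and over the other barcodes with at most 20% (right), per library and as the edgeR estimate with its standard error. mt-Co1 lay at -1.80 and -1.11, and mt-Nd3 at 1.83 and 1.21.

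Shares of a whole are bound to each other, so the make-up was also taken without mt-Co1. Of the remaining mt- UMIs, mt-Nd1 then took 6.64% ± 0.213 in over-80% barcodes and 3.49% ± 1.07 in globin-dominated barcodes (SD, n = 2 each). mt-Nd2 took 5.27% ± 0.106 in over-80% barcodes and 2.39% ± 0.418 in globin-dominated barcodes, and mt-Cytb took 10.9% ± 0.00615 in over-80% barcodes and 6.13% ± 1.31 in globin-dominated barcodes. mt-Co3 was turned round, with 25.4% ± 0.174 over 80% and 28.8% ± 0.282 in globin-dominated barcodes. mt-Nd5 took 0.969% ± 0.0366 in over-80% barcodes and 1.31% ± 0.127 in globin-dominated barcodes. With mt-Co1 out of the sum, the shares of mt-Nd1, mt-Nd2 and mt-Cytb were thus still higher in over-80% barcodes and that of mt-Nd5 lower. On that scale edgeR called 0 of the 9 members left. The share of all genes called there was not taken, so that count is not read as a result about the members. Counted against mt-Co3, mt-Co1 had 0.475 and 0.421 UMIs per mt-Co3 UMI in over-80% barcodes and 1.64 and 2.24 in globin-dominated barcodes.

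Scaled by coding length, mt-Co1 held 18.5% and 23.9% in globin-dominated barcodes, level with mt-Atp6 (23.1% and 24.0%), mt-Co3 (22.2% and 20.98%) and mt-Co2 (20.6% and 21.03%), whose ranges it overlapped. mt-Cytb (3.75% and 2.58%) and the complex I genes lay below, with mt-Nd1 at 2.70% and 1.62% and mt-Nd3 at 2.44% and 0.884%.

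Within the globin-dominated class the pooled make-up differed with the mitochondrial content of the barcode. mt-Co1 took 45.2% and 44.2% of mt- UMIs in barcodes with up to 0.2% mt- UMIs and 45.3% and 44.6% at 0.2 to 0.5%. The share was 43.1% and 42.7% at 0.5 to 1%, and 36.0% and 42.7% at 1 to 5%. In the 6 and 5 globin-dominated barcodes with more than 5%, it was 10.9% and 12.6% of the pooled mt- UMIs. Taken barcode by barcode, the median was 10.8% (quartiles 8.71% and 11.9%) in replicate 1, but 14.1% (quartiles 8.21% and 41.5%) in replicate 2, where the 5 barcodes were unlike. These few barcodes held 34.0% and 13.4% of the class's mt- UMIs. Without them, mt-Co1 took 42.7% and 43.6% in globin-dominated barcodes, and the libraries then differed by less than 1 percentage point. Complex I and mt-Cytb shares were lower still without them. mt-Nd1 took 1.34% and 1.13%, mt-Nd2 0.805% and 0.655%, mt-Nd3 0.348% and 0.183% and mt-Cytb 2.51% and 2.35% in globin-dominated barcodes with at most 5%. On this narrower class, chosen after seeing the data, edgeR called 5 members against the over-80% barcodes. They were mt-Co1, lower in the over-80% class by a log2 ratio of -2.08 (edgeR adjusted p = 0.0239), and mt-Nd1, mt-Nd2, mt-Nd3 and mt-Cytb, higher. Of all genes 36.7% were called in that fit, 0.122% higher and 36.6% lower.

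**Figure D3:**
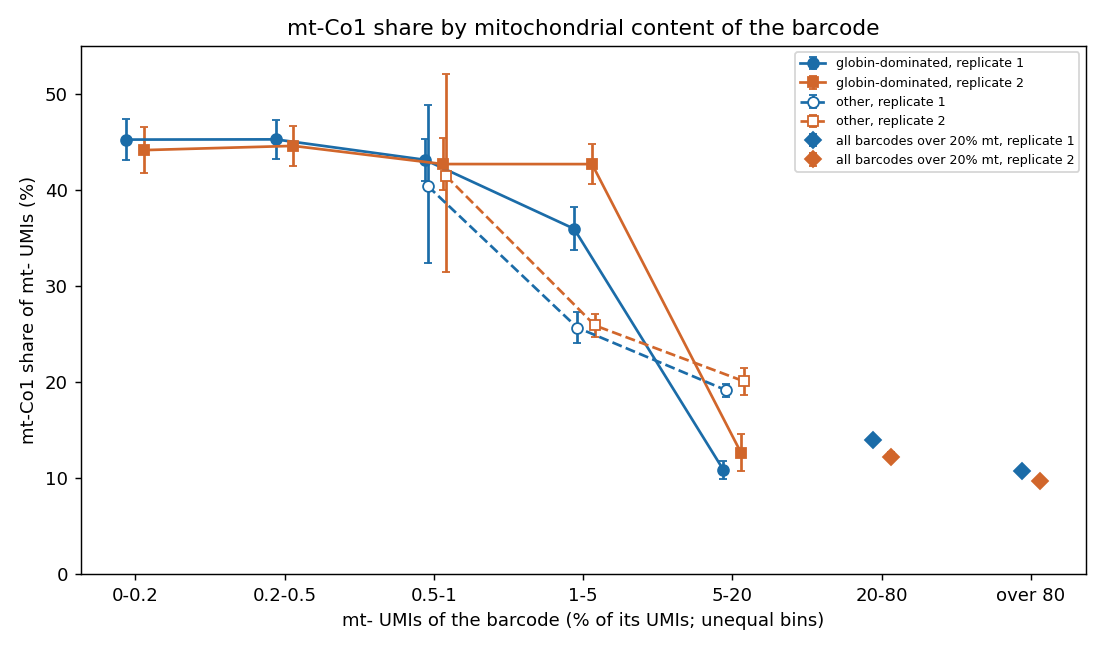
mt-Co1 share of the pooled mt- UMIs (%) by the mitochondrial content of the barcode (unequal bins), per library with exact binomial 95% intervals. Bins of the other barcodes under 0.5% hold fewer than 50 mt- UMIs and are not drawn. Globin-dominated barcodes lay between 36.0% and 45.3% up to 5% mt- UMIs and at 10.9% and 12.6% above it, where the 5 single barcodes of replicate 2 had a median of 14.1% and an upper quartile of 41.5%, and barcodes over 80% lay at 10.7% and 9.71%.

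The pooled make-up also differed with the haemoglobin share. mt-Co1 took 25.4% and 35.4% of mt- UMIs in barcodes with 50 to 80% haemoglobin UMIs, 38.1% and 44.0% at 80 to 90%, and 41.0% and 42.3% at 90% or more, where 173 and 162 barcodes lay. The highest mt- share of a barcode at 90% or more was 1.67% and 1.38%, so those above 5% all lay in the lower ranges. Without the barcodes above 5%, mt-Co1 took 42.7% and 43.6% in the whole globin-dominated class. The haemoglobin ranges were not taken without these few barcodes, so whether a gradient remains apart from them was not tested. With globin-dominated set at 90%, edgeR called 6 members against the over-80% barcodes, mt-Co1 lower (adjusted p = 1.24e-10) and 5 higher, and 37.5% of all genes (0.163% higher and 37.4% lower). At 5 to 20% mt- UMIs, mt-Co1 took 19.1% and 20.1% in the other barcodes, and at 1 to 5% it took 25.7% and 25.9%.

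The detection of the members in globin-dominated barcodes followed their shares only in part. In replicate 1, mt-Nd5 and mt-Nd3 each took 0.951%, yet were found in 13.7% and 6.13% of globin-dominated barcodes. mt-Nd2 took 1.83% there and was found in 11.4%. At least 1 mt-Co1 UMI was found in 97.9% and 96.0% of globin-dominated barcodes, mt-Co3 in 82.7% and 86.6%, mt-Cytb in 27.3% and 29.5% and mt-Nd3 in 6.13% and 4.29%. In over-80% barcodes all members but mt-Nd5 (98.1% and 99.6%) had a UMI in 100%. Globin-dominated barcodes with no mt- UMI at all numbered 1 and 5. Free RNA can give a barcode a few UMIs of a gene its cell does not express, and its part in these shares was not tested.

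The second comparison set the over-80% barcodes against the other barcodes with at most 20% mt- UMIs. mt-Co1 took 10.7% and 9.71% in over-80% barcodes, against 20.4% and 23.8% in the other barcodes, without overlap. Its log2 ratio was -1.11 (SE 0.75, edgeR adjusted p = 0.141), with -0.93 and -1.30 in the libraries. mt-Nd3 took 2.09% and 2.31% in over-80% barcodes, against 0.853% and 1.05% in the other barcodes (log2 ratio 1.21, SE 0.73, edgeR adjusted p = 0.0986). The remaining members were closer. mt-Nd1 took 6.06% and 5.86% in over-80% barcodes, against 3.58% and 3.94% in the other barcodes. mt-Nd2 took 4.63% and 4.82% in over-80% barcodes, against 3.44% and 3.18% in the other barcodes, and mt-Cytb 9.73% and 9.83% in over-80% barcodes, against 7.11% and 7.14% in the other barcodes. These 3 did not overlap. For the abundant transcripts the classes lay closest: mt-Co2 took 16.3% and 16.0% in over-80% barcodes and 15.9% and 15.96% in the other barcodes, and mt-Atp6 took 20.6% and 21.1% in over-80% barcodes and 20.7% and 18.8% in the other barcodes. mt-Nd5 had a lower share in over-80% barcodes, 0.842% and 0.898%, against 1.78% and 0.967% in the other barcodes.

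edgeR called 0 of 10 members in this comparison, where it called 99.4% of all genes. The unadjusted p-value was below 0.05 for 0 members, and DESeq2 called 2, mt-Co1 lower (adjusted p = 4.53e-06) and mt-Nd3 higher (adjusted p = 0.0358), and 98.9% of all genes (0.0247% higher and 98.8% lower). With globin-dominated set at 90%, which moves barcodes of lower haemoglobin share into the other class, edgeR called 5 members, 4 higher and 1 lower, and 99.8% of all genes (0.163% higher and 99.6% lower). No overlap was seen for 9 members, 7 higher and 2 lower in both libraries, where 98.9% of all genes did not overlap (0.222% higher and 98.6% lower). The median log2 ratio was 0.21 over the members and -8.62 over all genes. Of the mt- genes that are no members, mt-Nd6, the complex I gene of the opposite strand, was lower in over-80% barcodes by a log2 ratio of -1.62 (edgeR adjusted p = 0.0289), with 68 and 63 UMIs there and 18 and 3 in the other barcodes. The ratio was -2.21 in replicate 1 and -0.52 in replicate 2.

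The third comparison set the over-80% barcodes against those with 20 to 80% mt- UMIs, the nearest class. mt-Co1 took 10.7% and 9.71% in over-80% barcodes, against 14.0% and 12.2% in the intermediate barcodes (log2 ratio -0.36, SE 0.75, edgeR adjusted p = 0.657). mt-Nd1 took 6.06% and 5.86% in over-80% barcodes, against 4.64% and 4.996% in intermediate barcodes. mt-Nd3 took 2.09% and 2.31% in over-80% barcodes, against 1.61% and 1.74% in intermediate barcodes, and mt-Cytb 9.73% and 9.83% in over-80% barcodes, against 8.53% and 8.86% in intermediate barcodes. All log2 ratios of members were between -0.36 and 0.40. edgeR called 0 of 10 members where it called 79.8% of all genes, 0 had an unadjusted p-value below 0.05, and DESeq2 called 0 of 10 and 73.2% of all genes. The classes did not overlap for 9 members, where 70.4% of all genes did not, the exception being mt-Nd4 with 5.70% and 5.78% in over-80% barcodes, against 5.49% and 5.72% in intermediate barcodes. The median log2 ratio was 0.046 over the members and -4.64 over all genes.

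The last comparison set the globin-dominated barcodes against the other barcodes with at most 20% mt- UMIs. mt-Co1 took 31.9% and 39.4% in globin-dominated barcodes, against 20.4% and 23.8% in the other barcodes (log2 ratio 0.69, SE 0.75, edgeR adjusted p = 0.377). mt-Nd2 took 1.83% and 1.27% in globin-dominated barcodes, against 3.44% and 3.18% in the other barcodes (log2 ratio -1.10, SE 0.75, edgeR adjusted p = 0.157). mt-Nd4 took 3.04% and 2.45% in globin-dominated barcodes, against 4.81% and 4.98% in the other barcodes, and mt-Cytb 4.80% and 3.15% in globin-dominated barcodes, against 7.11% and 7.14% in the other barcodes. These 4 members were among 8 that did not overlap between the classes, where 94.8% of all genes did not, while mt-Co3 and mt-Nd3 did overlap. edgeR called 0 of 10 members where it called 87.1% of all genes (10.2% higher and 76.9% lower in globin-dominated barcodes), and 0 had an unadjusted p-value below 0.05. DESeq2 called 4, mt-Co1 higher (adjusted p = 8.41e-03) and mt-Nd2, mt-Nd4 and mt-Cytb lower, and 68.9% of all genes (8.45% higher and 60.5% lower). The median log2 ratio was -0.64 over the members and -5.46 over all genes. Without the 11 globin-dominated barcodes above 5% mt- UMIs, edgeR called mt-Nd1, mt-Nd2 and mt-Nd3 lower, and 85.2% of all genes (11.7% higher and 73.5% lower). These comparisons share classes of the same libraries, so their values are not independent.

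Single barcodes with at least 50 mt- UMIs varied most in mt-Co1. In over-80% barcodes its share ran from 4.17% over a median of 10.7% to 22.2% in replicate 1, and from 4.28% over 9.43% to 19.5% in replicate 2. The variance of this share was 5.22 and 5.25 times that of random sampling at the same mt- UMI numbers. For the other 9 members the same ratio lay between 1.61 (mt-Nd5) and 4.10 (mt-Cytb), both in replicate 2. mt-Co2 was among the steadiest, with ratios of 1.68 and 1.79. In globin-dominated barcodes the ratio for mt-Co1 was 22.7 over 29 barcodes and 11.4 over 44, and 6.02 and 2.82 when only barcodes with at most 5% mt- UMIs were taken. Barcodes are not replicates, and these ratios carry no test.

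A decline of the mt-Co1 share with mitochondrial content was also seen among barcodes that carried markers of nucleated cells or platelets. A barcode counted for a list if it had at least 3 UMIs in at least 2 of its genes and most UMIs from that list. In leukocyte-marker barcodes of replicate 1, mt-Co1 took 20.6% of mt- UMIs with at most 20% mt- UMIs, 14.7% with 20 to 80% and 11.4% with over 80%, in 60, 29 and 10 barcodes. In replicate 2 the values were 18.02%, 12.1% and 9.91% in 5, 4 and 12 barcodes. Platelet-marker barcodes gave 23.8%, 17.2% and 11.0% in replicate 1 and 23.0%, 17.6% and 9.42% in replicate 2. Mesenchymal or mesothelial-marker barcodes gave 14.7%, 11.2% and 10.6% in replicate 1 and 13.0%, 10.7% and 8.68% in replicate 2. The mt-Co1 share was lower at each step in all 6 series, and the lists differed most in the low range. The mt-Nd3 share was higher at each step in 5 of the 6 series: it was 0.765%, 1.10% and 2.31% in leukocyte-marker barcodes of replicate 1 and 0.484%, 2.02% and 2.51% in those of replicate 2. Platelet-marker barcodes gave 0.717%, 1.43% and 2.00% for it in replicate 1 and 0.143%, 1.20% and 2.51% in replicate 2. In mesenchymal or mesothelial-marker barcodes it was 1.45%, 2.59% and 2.32% in replicate 1, lower at the last step, and 1.74%, 1.94% and 3.11% in replicate 2. The low range of platelet-marker barcodes held only 6 and 7 barcodes, and doublets and free RNA in marker-bearing barcodes were not tested.

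**Figure D4:**
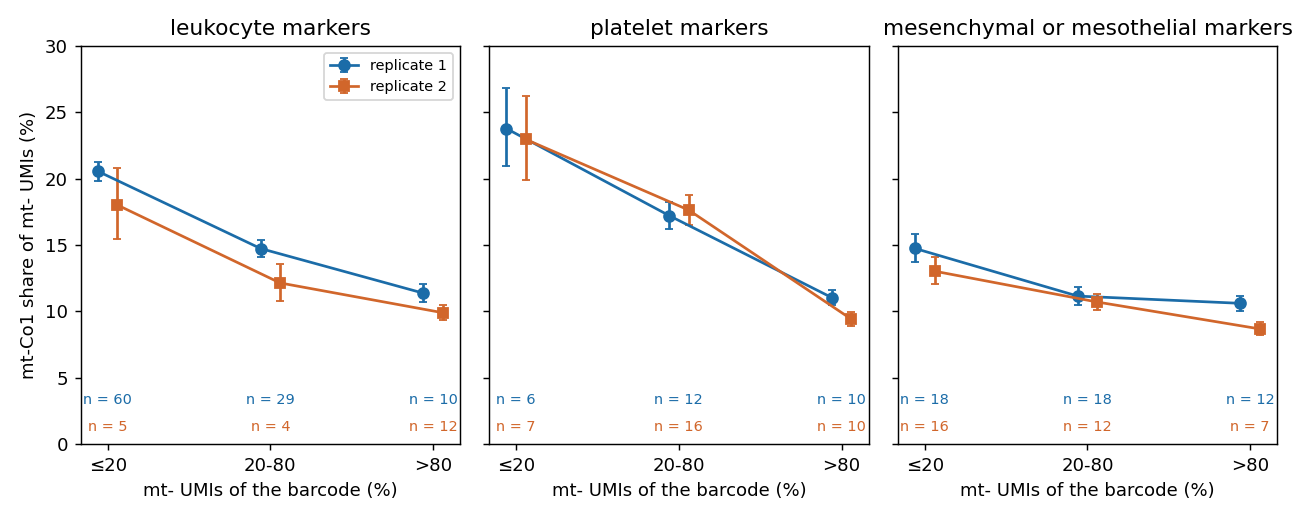
mt-Co1 share of mt- UMIs (%) in barcodes bearing leukocyte, platelet or mesenchymal or mesothelial markers, by the mt- UMIs of the barcode, per library with exact binomial 95% intervals; n is the number of barcodes. Every series was lower over 80% than at or under 20%, as in leukocyte-marker barcodes with 11.4% and 9.91% over 80%, against 20.6% and 18.02% at or under 20%.

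Nuclear-encoded partners of the members had few UMIs in the over-80% barcodes. A list of 77 nuclear genes of complexes I to V, of which 76 were among the genes counted, had 145 and 115 UMIs there, or 0.0487 and 0.0447 per 100 UMIs of members. It had 2912 and 2560 UMIs in globin-dominated barcodes, 23.3 and 29.2 per 100 member UMIs. In intermediate barcodes the ratio was 0.368 and 0.376, and in the other barcodes 3.07 and 6.32. Per 1000000 UMIs outside the mt- genes, the order was reversed: the list had 8067 and 6885 in over-80% barcodes, against 890 and 931 in globin-dominated barcodes, where globins made up most UMIs. The genes with most UMIs were Atp5l and Atp5h of ATP synthase, Cox6c and Cox6a1 of cytochrome c oxidase and Uqcrh of complex III, with 718, 430, 662, 418 and 452 UMIs in all. Since the mt- share set the classes, these ratios are a description with no test. Of 13 nuclear genes for mitochondrial RNA handling, 12 were counted, with 4 and 6 UMIs in over-80% barcodes and 3 and 5 in globin-dominated barcodes. The classes differ in depth, and per 1000000 UMIs the values were 12.6 and 21.8 over 80%, against 0.913 and 1.81 in globin-dominated barcodes. Intermediate barcodes had 15 and 8 UMIs of this list and the other barcodes 59 and 35.

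Among genes outside the mitochondrial chromosome with at least 50 UMIs, Gm10800 had the pattern most like the summed members over the 8 class sums (Pearson r = 0.958 of log2 CPM with a pseudocount of 10). Next came Tom1l2 (r = 0.930), Gm10801 (0.930), Apoe (0.886), which encodes a lipid carrier protein, and Tmtc1 (0.886). Gm10800 had 474 and 462 UMIs in over-80% barcodes and 6 and 3 in globin-dominated barcodes. These sums share 2 libraries and differ in mt- share by construction, so the correlations are a description.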

How the data were processed

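The authors deposited raw UMI counts per gene and barcode for both libraries, without any normalization. The build mm10, Cell Ranger 7.1.0 and Seurat 5 are named per the submitters' processing notes, and no source used here says how barcodes were called. The libraries held 1008 and 849 barcodes with 3967318 and 3329292 UMIs, and no further barcode filter or doublet removal was applied. The members and lists were chosen with earlier results of these data known. UMIs were summed per class and library (8 sums). They were tested in edgeR 4.0.16 (R 4.3.3; genes passing filterByExpr, library size set to the mt- UMIs of the sum, the library as a block, quasi-likelihood test, Benjamini-Hochberg adjustment over 4048 genes, threshold 0.05), which was checked on simulated data. The residual degrees of freedom were 3 and the common dispersion was 0.137. The simulated data had a smaller dispersion, and only genes other than the mt- genes were changed in them. They do not show how the test performs for the members. Classes come from the same libraries, so the replicate pairing is given by the design. DESeq2 1.42.0, other scalings, filters and class limits were alternatives. Named genes were all members, the 5 genes most alike and the 5 nuclear respiratory genes with most UMIs. Coordinates and sequences come from GENCODE M21 and copies from BLAST 2.17.0. Shares carry exact Clopper-Pearson 95% intervals.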

Additional observations from a re-analysis of the deposited data

How the results depend on the processing

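For over-80% against globin-dominated barcodes, the count of members called was 1. It became 2 with no replicate block, with at least 1000 UMIs per barcode and with classes set without the member, 7 with DESeq2, 6 with globin-dominated set at 90% and 0 with no filter on low counts. Median-ratio and TMM scaling gave 1 call each, mt-Co1 in place of mt-Nd3. Chosen after seeing the data, globin-dominated barcodes with at most 5% mt- UMIs gave 5 and a library size without mt-Co1 gave 0. Of all genes the main fit called 37.1%, DESeq2 44.3%, the 90% setting 37.5% and the setting of at most 5% mt- UMIs 36.7%. For the other settings of this comparison that share was not taken, so their counts are not read as results about the members. Against the other barcodes the count was 0, but 2 with DESeq2 and 5 with globin-dominated set at 90%. Against intermediate barcodes it was 0 in all alternatives. For globin-dominated against other barcodes it was 0, but 4 with DESeq2, 5 at 90% globin and 3 with at most 5% mt- UMIs. Of all genes the main fit called 87.1% there, DESeq2 68.9% and the fit with at most 5% mt- UMIs 85.2%. At 90% globin that share was not taken, so the 5 calls are not read as a result about the members. The cause of these changes in the counts was not tested. The replicate block changed no other call than that of mt-Co1 in the first comparison (edgeR adjusted p = 0.0412 without it). Leaving out 1 library leaves no residual degrees of freedom, so those fits gave values alone. Of 496 alternative log2 ratios, 453 kept their side of the threshold or had no p-value, 39 passed it newly, 4 lost it (all mt-Nd3) and 0 called ones turned sign. Those with no p-value were 40 ratios without replicate 1 and 40 without replicate 2. Of 200 alternative shares, 26 moved by more than the SD of the libraries. The 200 include 40 without replicate 1 and 40 without replicate 2, which cannot move that far from a mean of 2 libraries. The 26 were 10 with class limits of 10% and 90%, 11 as means over barcodes and 5 as shares of the 10 members. Depth limits the rare members: mt-Nd3 in globin-dominated barcodes had 120 and 29 UMIs.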
